A study of Mus musculus with 847 samples.

Results

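The genes described here are 9 chemokine ligands, Ccl2, Ccl3, Ccl4, Ccl6, Ccl12, Cxcl10, Cxcl12, Cxcl16 and Cx3cl1, followed across 15 dissected brain regions and 7 ages of the mouse. They are listed by name, and all 9 were present among the 21076 genes measured. RNA of whole tissue was sequenced in 847 libraries, at most 1 for each region and mouse, from 59 mice of C57BL/6JN, an inbred strain that is widely used as a normal mouse. Females were sampled at 3, 12, 15, 18 and 21 months with 5 mice at each age. Males were sampled at the same ages with 5 mice, or 6 at 21 months, and also at 26 months (5 mice) and 28 months (3 mice). The labels name no genetic change and no treatment, and they tell the groups apart by region, sex and age. Everything above 21 months rests on males. Of the mice, 37 had all 15 regions. The regions were motor, visual and entorhinal cortex, anterior and posterior hippocampus, hypothalamus, thalamus, caudate putamen, corpus callosum, choroid plexus, subventricular zone, cerebellum, medulla, pons and olfactory bulb.

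Chemokines are small signalling proteins that guide the movement of leukocytes by acting on receptors that span the cell membrane. In the brain they are made by microglia, border macrophages, endothelium, astrocytes and neurons. Ccl3 and Ccl4 are made by activated microglia, and Ccl6 is made by myeloid cells and acts on Ccr1. Ccl2 and Ccl12 attract monocytes through Ccr2. Cxcl10 is induced by interferons and attracts activated T cells through Cxcr3. Cxcl16 and Cx3cl1 are made as membrane-bound proteins that the proteases Adam10 and Adam17 can release. Cxcl16 acts on Cxcr6, and Cx3cl1, also called fractalkine, passes from neurons to Cx3cr1 on microglia. Cxcl12 acts on Cxcr4 and Ackr3 and takes part in the placing of cells in development.

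Of the 9 genes, 6 lie on chromosome 11 in the GENCODE annotation of mouse build GRCm38. Ccl2 (positions 82035571 to 82037453) and Ccl12 (82101845 to 82103400) lie near each other on the plus strand, as do Ccl6 (83587882 to 83593087, minus strand), Ccl3 (83647844 to 83649355, minus strand) and Ccl4 (83662584 to 83664683, plus strand). Cxcl16 lies at 70453983 to 70459984 on the minus strand of the same chromosome. Cxcl10 lies on chromosome 5 (92346638 to 92348889, minus strand), Cxcl12 on chromosome 6 (117168535 to 117181367, plus strand) and Cx3cl1 on chromosome 8 (94772009 to 94782427, plus strand). Because the libraries were not stranded, reads of a gene and of a partner on the opposite strand cannot be told apart. That applies to Cxcl10 with Art3, Cxcl16 with Zmynd15, Ccl6 with E230016K23Rik and Ccl2 with Gm17268.

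Cxcl10 and Ccl12 are shown by the sequence before their start sites, because the genes whose levels were most like theirs were of the interferon response, as described further on. The 250 bases before the RefSeq start of Cxcl10 (GRCm38.p6, chr5:92348890-92349139, minus strand) and of Ccl12 (chr11:82101595-82101844, plus strand) are given 5′ to 3′ with matches to the motifs searched in capitals.
Cxcl10: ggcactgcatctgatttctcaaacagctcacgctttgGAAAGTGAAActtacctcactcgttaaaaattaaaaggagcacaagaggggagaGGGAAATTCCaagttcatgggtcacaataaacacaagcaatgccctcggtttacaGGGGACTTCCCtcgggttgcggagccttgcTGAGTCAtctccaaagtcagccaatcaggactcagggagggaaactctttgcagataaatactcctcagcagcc
Ccl12: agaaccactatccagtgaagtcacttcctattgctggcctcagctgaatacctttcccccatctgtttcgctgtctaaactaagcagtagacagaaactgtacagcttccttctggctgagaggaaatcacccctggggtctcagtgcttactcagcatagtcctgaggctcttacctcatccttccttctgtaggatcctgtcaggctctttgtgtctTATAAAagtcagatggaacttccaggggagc
The motifs were searched on both strands over 300 bases, from 250 before to 50 after the start. The interferon element (GAAA and GAAA parted by 2 bases of any kind) matched in Cxcl10 as GAAAGTGAAA, 213 bases before the start, and 3.44% of 32851 mouse promoters of the same length hold such a match. The NF-kB element (GGG and CC parted by 5 bases of any kind) matched in Cxcl10 as GGGAAATTCC, and as GGGGACTTCC and GGGACTTCCC, which overlap each other, the latter matching on both strands. It is a loose motif, present in 50.8% of promoters. The AP-1 element TGANTCA matched in Cxcl10 as TGAGTCA (7.81% of promoters), and TATAAA matched in Ccl12 31 bases before the start (13.6% of promoters). RefSeq promoters were matched for 6 of the 9 genes. Cx3cl1 held TATAAA 6 bases before the start, Cxcl12 held 1 match to the NF-kB element, and Ccl3 and Ccl6 held none of the 4 motifs. These matches are descriptions of letters in a window.

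The smallest library held 481444 reads, the median one 6716032 and the largest 26756735. In all, 10 of the 847 were below 1000000 reads. Levels are given as CPM, reads per 1000000 of the library total scaled by TMM factors within each region. Several regions hold a mixture of neighbouring tissue. The choroid plexus libraries carried a summed level of 562 to 11773 CPM over 6 epithelium genes beside 3899 to 6310.4 CPM over 6 neuron genes. The 6 epithelium genes reached from 4.19 to 17961 CPM in callosal libraries. A cerebellar library (mouse 40) held 2764 CPM over 7 granulocyte genes where the median was 13.6 CPM, and the highest Ccl6 level of the series (21.2 CPM). The entorhinal library of mouse 52 held 19345 CPM over 5 oligodendrocyte genes where the median was 1317.

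Cx3cl1 was by far the most abundant of the 9 per length of transcript, and most of the others were near the limit of detection. Divided by exon length, the median over regions was 227 CPM per kb for Cx3cl1, 6.24 for Cxcl12, 2.5 for Ccl12, 1.72 for Ccl6, 1.2 for Ccl3, 1.02 for Cxcl16, 0.811 for Ccl4, 0.306 for Cxcl10 and 0.28 for Ccl2. The levels of Ccl2, Ccl3, Ccl4, Ccl12 and Cxcl10 rest on few reads per library. With no read of a gene, a library allows a level of up to 3 reads. Such limits cover counting error only, since the reads carry no molecular identifiers.

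Cx3cl1 was highest in caudate putamen (1606 ± 200.1 CPM, SD, n = 58), visual cortex (1525 ± 208, n = 56) and motor cortex (1407 ± 146, n = 59). It was lowest in cerebellum (109.8 ± 22.2, n = 58), medulla (290.3 ± 39.5, n = 58) and pons (314 ± 23, n = 51). The libraries of corpus callosum, a tract of axons, held 1225 ± 159.7 CPM (n = 57), below motor cortex in 53 of 57 mice with both regions. The part of neighbouring tissue in that level was not tested. Between subventricular zone (948), olfactory bulb (933), entorhinal cortex (904), anterior hippocampus (892), thalamus (871) and posterior hippocampus (866) the steps from each to the next were smaller than the SD of the difference within mice. Of the 14 steps between neighbours in the order, 6 exceeded the SD of the difference within mice. Cxcl12 was highest in anterior hippocampus (107 ± 15 CPM, n = 57) and posterior hippocampus (81.7 ± 19.4, n = 58) and lowest in medulla (32.2 ± 10.3, n = 58), and the step between both parts of the hippocampus was the 1 of 14 that exceeded that SD.

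**Figure D1:**
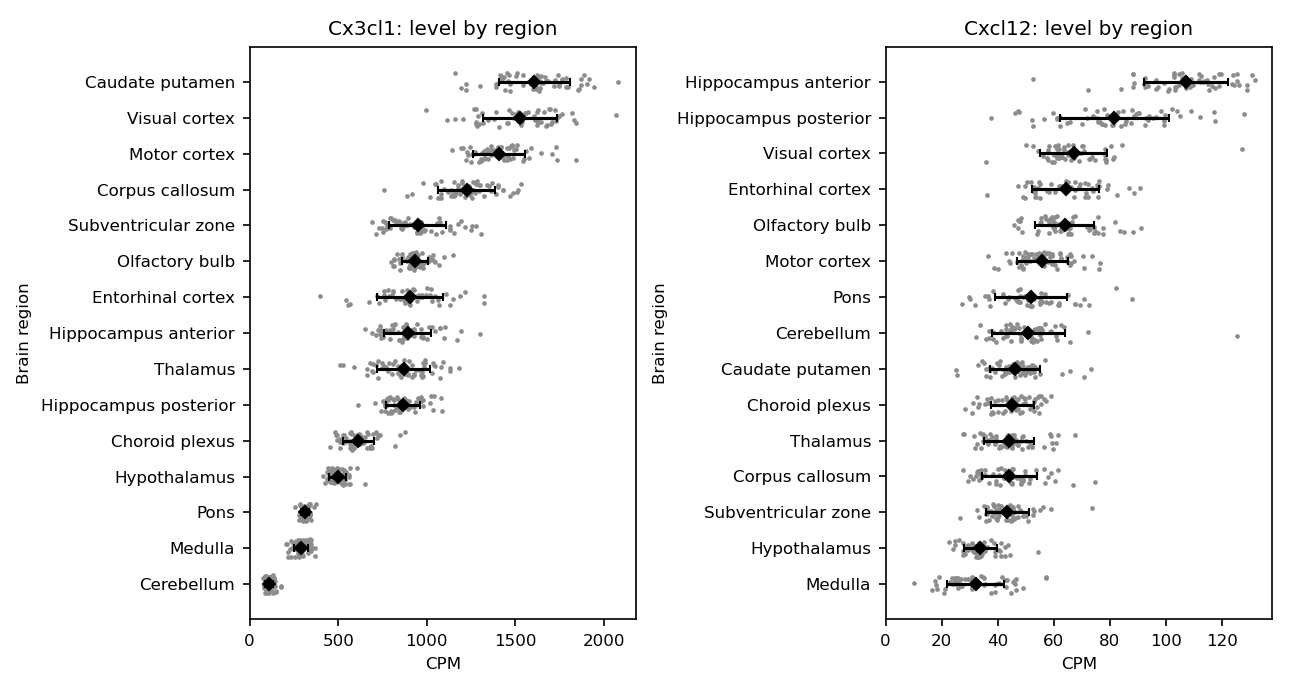
Level of Cx3cl1 (left) and Cxcl12 (right) in 15 regions. Each grey point is 1 library (1 mouse), diamonds are means and bars are 1 SD, both axes are linear CPM and start at 0; Cx3cl1 spans means of 109.8 to 1606 CPM, Cxcl12 of 32.2 to 107.

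For the other 7 genes no step between neighbouring regions exceeded that SD. Pons had the highest mean of Ccl3 (1.72 CPM), Ccl4 (1.57), Ccl6 (6.05), Ccl12 (1.93) and Cxcl16 (6.36) over all ages. Subventricular zone had the highest mean of Cxcl10 (1.82 CPM), and choroid plexus the highest of Ccl2 (0.748 CPM). Motor or visual cortex had the lowest mean of each of these 7 genes, at 0.082 CPM for Ccl3 and 1.64 CPM for Ccl6. In mice of 3 months alone the order differed. There the olfactory bulb had the highest mean of Ccl6 (3.12 CPM), Ccl12 (2.55), Cxcl10 (1.95) and Cxcl16 (5.89), and the mean of Ccl3 in pons was 0.17 CPM.

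With age, 8 of the 9 ligands rose and Cx3cl1 fell when the regions of each mouse were averaged. The slope of this mean over 59 mice was 0.078 ± 0.0052 log2 per month (SE) for Ccl3, 0.076 ± 0.0058 for Ccl4, 0.057 ± 0.0039 for Ccl6, 0.049 ± 0.0069 for Cxcl10, 0.045 ± 0.0071 for Ccl12, 0.041 ± 0.0042 for Cxcl16, 0.027 ± 0.0049 for Ccl2 and 0.010 ± 0.0021 for Cxcl12. Cx3cl1 fell by 0.0088 ± 0.00099 log2 per month. The adjusted p (limma, Benjamini-Hochberg over 16527 genes, 2-sided) ran from 4.13e-19 for Ccl3 to 0.000106 for Cxcl12. In this fit 21.7% of all genes rose and 22.5% fell. Values were on a log2 scale with 2 reads added to each count, which understates the slope of rare genes.

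Within single regions, 109 of the 135 pairs of a ligand and a region passed the filter on low counts. The filter was set on the groups of sex and age, so a gene can pass through a few libraries in which it is high. Of these 109, 59 rose and 7 fell with age at an adjusted p under 0.05 (edgeR quasi-likelihood test, Benjamini-Hochberg within a region, 2-sided), against 5.87% rising and 4.71% falling of all pairs of a gene and a region. The median slope was 0.055 log2 per month over the 109 pairs. Every one of the 7 falls was Cx3cl1.

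By region, the share of ligands that rose was highest in medulla and cerebellum. In medulla 8 of 9 ligands rose and 1 fell, where 6.33% of the region's genes rose and 3.95% fell. In cerebellum 7 of 8 rose (9.45% of genes rose, 7.52% fell). In pons 6 of 9 rose (3.94% and 0.743%), in corpus callosum 6 of 9 rose and 1 fell (9.06% and 8.71%), and in choroid plexus 6 of 9 rose and 1 fell (11.1% and 9.03%). In subventricular zone 6 of 8 rose (4.5% and 3.27%), and in caudate putamen 5 of 8 rose and 1 fell (7.32% and 6.11%). Thalamus had 4 rising of 7 (2.32% and 1.51%), posterior hippocampus 4 of 6 (4% and 2.05%), hypothalamus 3 of 6 (3.88% and 3%), and anterior hippocampus 3 rising and 1 falling of 8 (5.76% and 3.64%). In motor cortex 1 of 4 rose and 1 fell (8% and 8.65%). In visual cortex none of 5 rose and 1 fell (5.13% and 4.46%). In olfactory bulb none of 6 changed, although 7.31% of genes rose and 8.3% fell there. In entorhinal cortex none of 7 changed, where 0.0758% of genes rose and 0.0207% fell, so that few genes of any kind were called.

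Mouse numbers run in blocks, with ages 12 and 26 months in numbers 1 to 15 and 28 months in 57 to 59. Within mice 16 to 56 alone, which hold the other ages, 45 pairs rose and 5 fell of 100. In males alone the counts were 43 and 7 of 102. The shares of all genes given above belong to the fit of all libraries and not to these smaller sets.

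**Figure D2:**
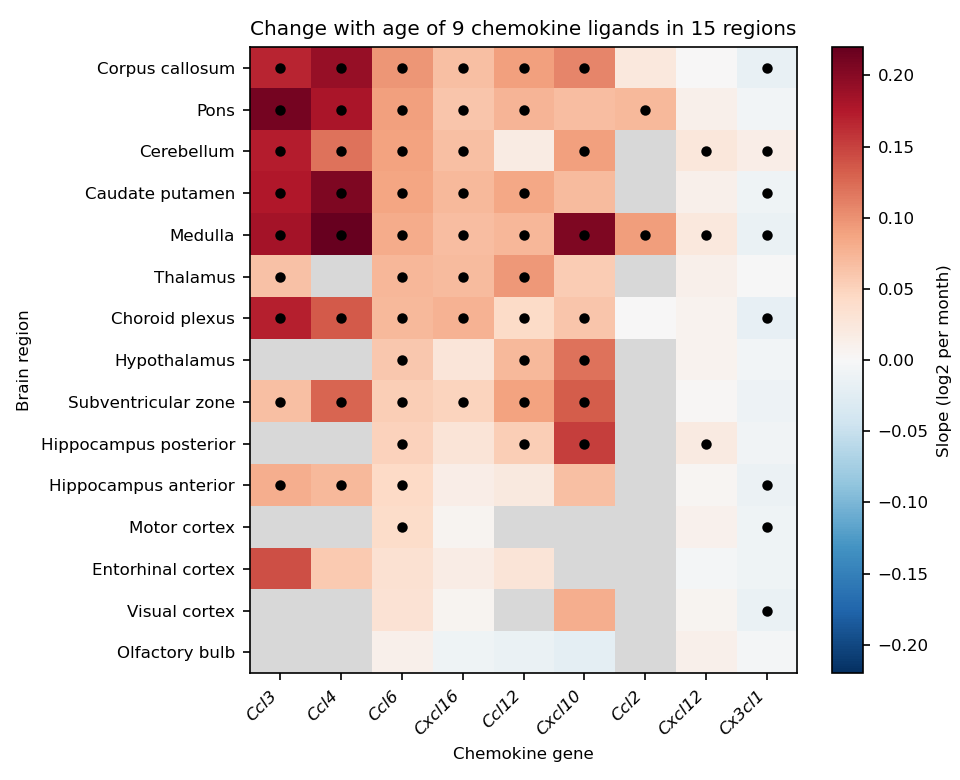
Age slope of the 9 ligands (columns) in 15 regions (rows, ordered by the slope of Ccl6), as colour in log2 per month, red for rising and blue for falling. Black dots mark an adjusted p under 0.05 and grey cells were below the filter on low counts; the dots lie on 59 rising and 7 falling cells, and entorhinal cortex and olfactory bulb hold none.

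Ccl3, Ccl4 and Ccl6, the ligands of activated microglia and other myeloid cells, rose in the largest share of the regions where they passed the filter. Ccl6 rose in 12 of 15 regions, Ccl3 in 9 of the 10 where it passed the filter and Ccl4 in 8 of 9. Ccl3 and Ccl4 were low at 3 months, as given below, so aged libraries could carry them past the filter and raise their shares. In corpus callosum, Ccl6 ran from 1.59 to 4.52 CPM at 3 months with a median of 2.64 (2.68 ± 0.918, SD, n = 10), and was 11.4, 13.0 and 12.4 CPM in the 3 mice of 28 months. Every library of 28 months lay above every library of 3 months. The difference was 2.39 ± 0.22 (SE) on the log2 scale (adjusted p = 2.48e-12), and the slope of 0.098 ± 0.0070 log2 per month was the steepest of Ccl6 in any region. Ccl3 there ran from 0 to 0.661 CPM at 3 months with a median of 0.255 (n = 10), and was 2.95, 3.02 and 2.54 CPM at 28 months, again without overlap. The log2 difference was 3.65 ± 0.46 (adjusted p = 2.42e-08). Ccl4 there went from 0 to 0.396 CPM (median 0.194, n = 10) to 3.08, 4.53 and 2.28 CPM, a log2 difference of 4.77 ± 0.59 (adjusted p = 2.4e-08).

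In medulla, pons and cerebellum Ccl3, Ccl4 and Ccl6 rose as well. Ccl3 in pons ran from 0 to 0.488 CPM at 3 months (median 0.166, n = 9) and was 4.08, 4.51 and 2.88 CPM at 28 months, with no overlap. Its slope there was 0.21 ± 0.015 log2 per month (adjusted p = 4.28e-16), the steepest of Ccl3. Ccl4 in medulla was at 0 reads in 8 of 10 libraries of 3 months and reached 0.177 CPM at most. At 28 months it was 2.93, 3.49 and 1.33 CPM, and its slope of 0.23 ± 0.019 (adjusted p = 5.46e-15) was the steepest of any pair. In caudate putamen, part of the basal ganglia, Ccl6 ran from 0.927 to 4.28 CPM at 3 months (median 2.98, n = 9) and was 13.2, 8.7 and 17.8 CPM at 28 months. Ccl3 rose in that region by 0.18 ± 0.020 log2 per month. In motor cortex only Ccl6 of the 3 genes passed the filter, and it rose by 0.040 ± 0.0097 (adjusted p = 0.00225) from 0.601 to 1.87 CPM at 3 months (median 1.15, n = 10) to 2.7, 2.0 and 4.05 CPM. In males alone that call was lost (slope 0.025, adjusted p = 0.122). In motor cortex 6 of 7 granulocyte genes rose, with a summed level of 0.115 to 22.8 CPM at 3 months and 8.13 to 33.2 CPM at 28 months, and none of 8 markers of homeostatic microglia rose while 1 fell. In hypothalamus and in visual cortex 6 of 7 granulocyte genes rose as well. Ccl6 was called in hypothalamus (slope 0.0598) and not in visual cortex (slope 0.0313). Of the 8 microglia markers, 6 rose in hypothalamus, while in visual cortex 0 rose and 2 fell. The part of such cells in the rise of Ccl6 was not tested. In olfactory bulb Ccl6 did not pass the test (slope 0.012 ± 0.011, adjusted p = 0.532), and its range at 3 months (0.906 to 6.26 CPM) held 2 of its 3 values at 28 months (4.05, 3.17 and 9.8 CPM). The call of Ccl3 in thalamus (slope 0.0645) was lost without mouse 2, 41 or 53 (adjusted p = 0.0546 without mouse 53), and in males alone it was 0.468.

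**Figure D3:**
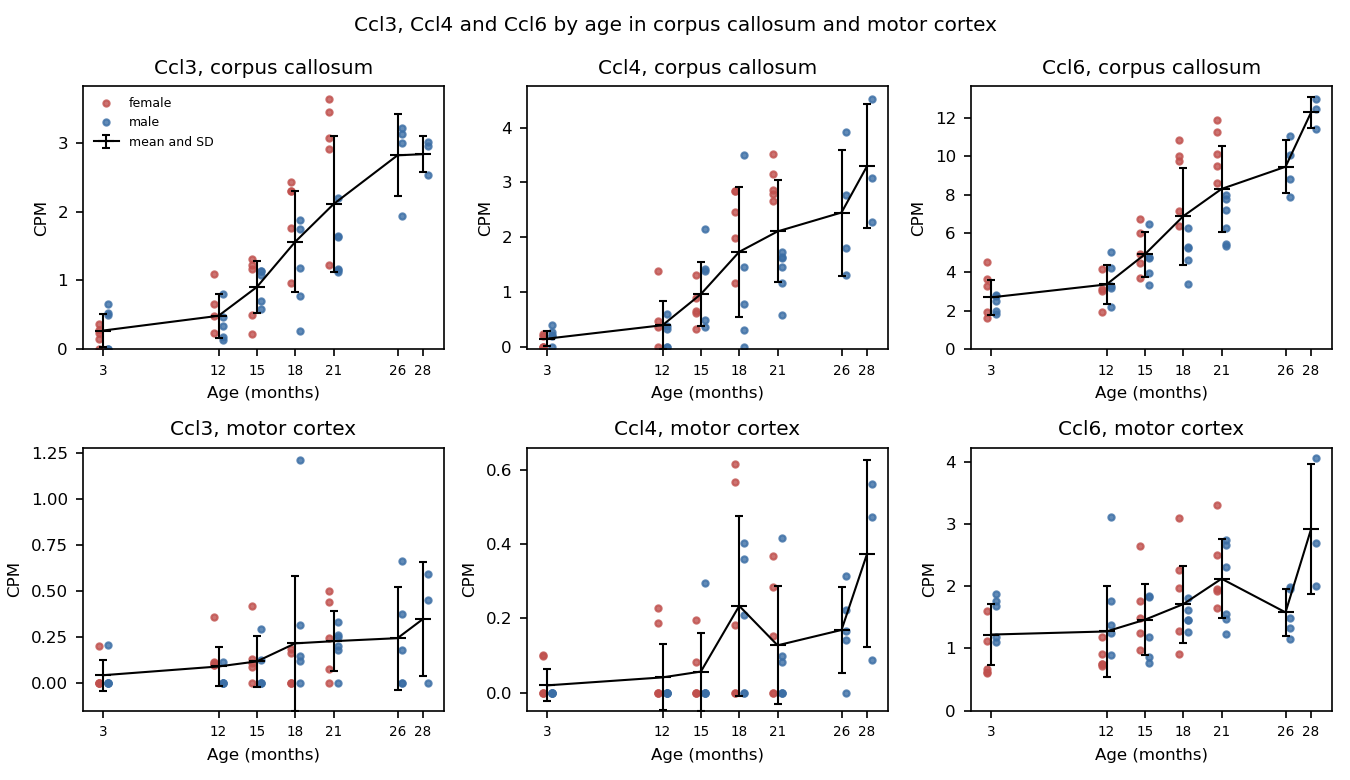
CPM of Ccl3, Ccl4 and Ccl6 (columns) by age in months in corpus callosum (top) and motor cortex (bottom). Red points are female and blue points male libraries, 1 per mouse, black lines join the means and bars are 1 SD; in corpus callosum the 28-month libraries of all 3 genes lie above all 3-month libraries, and Ccl3 and Ccl4 in motor cortex are shown although they were below the filter for testing.

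The rise of these genes came with a smaller rise of microglial genes. In corpus callosum 5 of 8 markers of homeostatic microglia rose with a median slope of 0.013 log2 per month over the 8, and their summed level went from 362 to 451 CPM at 3 months to 502 to 688 CPM at 28 months. In pons the sum went from 282 to 404 CPM to 497 to 555 CPM, and in medulla from 242 to 329.6 CPM to 353 to 416 CPM. In motor cortex it was 297 to 361 CPM and 287 to 370.4 CPM, and in olfactory bulb 361 to 467 CPM and 446 to 465 CPM. None of the 8 markers was at 0 over a region. The part of cell number in the rise of the ligands was not tested, and in whole tissue a change in the number of cells and a change in RNA per cell cannot be told apart. The 6 border macrophage genes summed to 6.81 to 11.6 CPM in the callosum at 3 months and to 6.93 to 12.7 CPM at 28 months. Of the 4 that passed the filter there, 1 rose and 0 fell, where 9.06% of the region's genes rose.

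Cxcl16, a membrane-bound ligand of macrophages and other cells, rose in 8 of 15 regions. Its steepest slope was in choroid plexus, at 0.076 ± 0.0086 log2 per month (adjusted p = 5.37e-10). There it ran from 1.88 to 3.53 CPM at 3 months (median 2.52, n = 10) and was 6.82, 8.97 and 5.17 CPM at 28 months, without overlap. In pons, where it was highest, it ran from 1.55 to 6.94 CPM (median 3.05, n = 9) and was 10.5, 7.68 and 6.34 CPM, so that 1 library of 28 months lay within the range of the young mice. The slope there was 0.060 ± 0.010. In olfactory bulb it was 3.4 to 9.07 CPM at 3 months (median 6.04, n = 10) against 3.76, 6.21 and 2.67 CPM (slope -0.0096 ± 0.0063, adjusted p = 0.327). Zmynd15, which overlaps Cxcl16 on the other strand, passed the filter in 6 regions and rose in 4 of them. Its slope was 0.093 ± 0.013 log2 per month in choroid plexus, 0.088 ± 0.014 in corpus callosum, 0.081 ± 0.014 in medulla and 0.070 ± 0.015 in pons, each at or above that of Cxcl16 in the same region, and its part in the level of Cxcl16 was not tested.

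The monocyte attractant Ccl12 rose in 9 of 13 regions and Cxcl10, the interferon-induced ligand, in 7 of 13. In corpus callosum Ccl12 ran from 0 to 2.01 CPM at 3 months (median 0.714, n = 10) and was 3.21, 6.14 and 3.81 CPM at 28 months, without overlap. In subventricular zone, a niche of new neurons, it ran from 0 to 2.85 CPM (median 0.583, n = 10) and was 2.08, 1.58 and 11.0 CPM, so that the oldest mice spread widely and overlapped with the young. The slope was 0.090 ± 0.020 log2 per month in corpus callosum (adjusted p = 0.000542) and 0.089 ± 0.020 in subventricular zone (adjusted p = 0.00265). In mice 16 to 56 alone neither passed (adjusted p = 0.0985 and 0.137). Of the 9 calls of Ccl12 1 held under every alternative run, in medulla, and of the 7 of Cxcl10 3 did, in medulla, posterior hippocampus and subventricular zone. Cxcl10 was steepest in medulla (0.21 ± 0.030, adjusted p = 6.03e-07), where it was at 0 to 0.347 CPM at 3 months (median 0.0416, n = 10) and 0 to 4.55 CPM at 21 months (median 1.41, n = 11), yet 1.2, 0.611 and 0 CPM at 28 months. In subventricular zone it ran from 0 to 2.06 CPM at 3 months (median 0.34, n = 10) and from 0.0657 to 15.6 CPM at 21 months (median 2.41, n = 10). Single libraries thus stood far above others of their age, while 1.1, 1.78 and 4.8 CPM at 28 months overlapped with the young.

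In olfactory bulb neither gene passed the test. Ccl12 ran from 0.793 to 9.11 CPM at 3 months (median 1.65, n = 10) and was 1.73, 2.24 and 0 CPM at 28 months. Cxcl10 ran from 0.449 to 7.85 CPM (median 1.23) and was 2.31, 0.396 and 0.891 CPM. The highest library of both genes at 3 months was that of mouse 33, and the young and aged libraries overlapped. Several calls of these genes lay close to the threshold. That of Ccl12 in choroid plexus (adjusted p = 0.0495) was lost when any 1 of 44 mice was left out, with 0.11 without mouse 58, and that of Cxcl10 there (0.0478) when any 1 of 32 mice was left out, with 0.0907 without mouse 53. Ccl12 in posterior hippocampus (0.0446) was lost when any 1 of 22 mice was left out, with 0.0871 without mouse 5. In hypothalamus, Ccl12 was lost when any 1 of 6 mice was left out (0.101 without mouse 58) and Cxcl10 without mouse 40 or 58 (0.0846 without mouse 40). Art3, which overlaps Cxcl10, rose by 0.021 ± 0.0025 log2 per month in the mean over regions, against 0.049 ± 0.0069 for Cxcl10, and passed the test in 7 of 15 regions. Its part in the level of Cxcl10 was not tested.

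**Figure D4:**
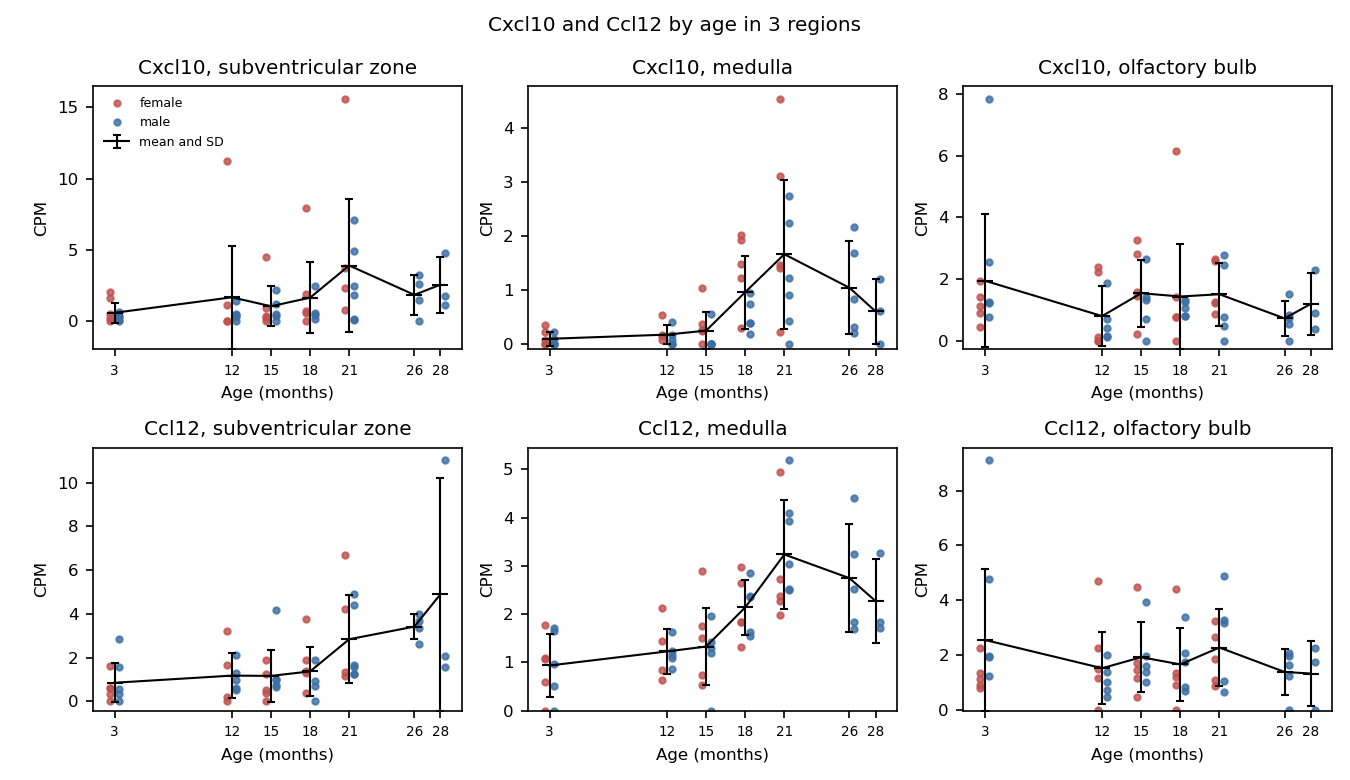
CPM of Cxcl10 (top) and Ccl12 (bottom) by age in months in subventricular zone, medulla and olfactory bulb. Red points are female and blue points male libraries, 1 per mouse, black lines join the means and bars are 1 SD, which a few high libraries widen; the highest Cxcl10 value of 15.6 CPM is 1 library of subventricular zone at 21 months.

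Ccl2, the classical attractant of monocytes, passed the filter in 4 regions only and rose in medulla and pons. In medulla it ran from 0 to 0.623 CPM at 3 months (median 0.169, n = 10) and from 0 to 2.28 CPM at 21 months (median 0.962, n = 11), and was 1.03, 0.699 and 0 CPM at 28 months. The slope was 0.092 ± 0.020 log2 per month (adjusted p = 0.000744), and the groups overlapped. In pons the call (slope 0.072) was lost without mouse 57 (adjusted p = 0.0719). In males alone the adjusted p was 0.0535 in medulla and 0.303 in pons.

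Cx3cl1, the neuronal ligand, fell in 7 of 15 regions and rose in cerebellum. In visual cortex it ran from 1537 to 1762 CPM at 3 months (median 1684, n = 10) and was 995, 1114 and 1202 CPM at 28 months. Every aged library lay below every young one, and the log2 difference was -0.59 ± 0.10 (adjusted p = 0.00016). In motor cortex it ran from 1419 to 1729 CPM (median 1499, n = 10) and was 1194, 1259 and 1141 CPM, a log2 difference of -0.29 ± 0.059 (adjusted p = 0.000709). In corpus callosum it ran from 1158 to 1515 CPM (median 1380.1, n = 10) and was 757, 1077 and 1077 CPM, again without overlap (log2 difference -0.47 ± 0.10, adjusted p = 0.00124). In choroid plexus the slope of -0.019 ± 0.0026 log2 per month was the steepest fall, with 639 to 879.7 CPM at 3 months (n = 10) against 666, 510.2 and 570.3 CPM.

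Cerebellum went the other way, from 82.9 to 131 CPM at 3 months (median 96.1, n = 10) to 119, 132 and 115 CPM at 28 months (slope 0.014 ± 0.0046, adjusted p = 0.0275). That call was lost without mouse 33 or 56 (adjusted p = 0.0546 without mouse 33), and the fall in caudate putamen without mouse 21, 29, 53 or 57 (0.0751 without mouse 21). In males alone the adjusted p was 0.143 in cerebellum and 0.0927 in caudate putamen. The summed level of 6 neuron markers was 7339.6 to 8283 CPM in visual cortex at 3 months and 7604 to 7900.4 CPM at 28 months, and in motor cortex 8494 to 9352 CPM and 8736 to 9074 CPM. In each of these regions the ranges of both ages overlapped. In choroid plexus 2 of the 6 markers fell, with a median slope of -0.0095 log2 per month and a sum of 4283 to 6093 CPM at 3 months and 4773 to 5289 CPM at 28 months. In caudate putamen 2 fell (3306 to 4989.8 CPM and 3231 to 3534 CPM), and in motor cortex 1 did. Over all regions 14 of 90 pairs of a neuron marker and a region fell and 3 rose. In the mean over regions 3 of the 6 markers fell and 0 rose, where 22.5% of all genes fell and 21.7% rose. The part of neurons in the fall of Cx3cl1 was not tested. None of the 6 was at 0 over a region.

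Cxcl12, made by endothelium, stroma and some neurons, rose in cerebellum, medulla and posterior hippocampus. In cerebellum it ran from 32.4 to 55.3 CPM at 3 months (median 43.0, n = 10) and was 60.9, 59.1 and 45.0 CPM at 28 months, with 1 aged library inside the young range. Its slope there was 0.025 ± 0.0047 log2 per month (adjusted p = 7.11e-05). In medulla it ran from 10.0 to 46.4 CPM (median 24.4, n = 10) and was 57.1, 43.0 and 46.6 CPM (slope 0.023 ± 0.0075, adjusted p = 0.0383). The call in medulla was lost when any 1 of 12 mice was left out (adjusted p = 0.0968 without mouse 57) and that in posterior hippocampus when any 1 of 6 mice was left out (0.084 without mouse 33). In mice 16 to 56 alone the adjusted p in medulla was 0.452, and in males alone that in posterior hippocampus was 0.144.

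The ages at which the ligands first differed from 3 months were set out by testing each later age against the same 3-month libraries. At 12 months 1 of 109 pairs was higher, Ccl3 in pons, where 0.678% of all pairs were higher and 0.668% lower. At 15 months 12 were higher and 1 lower (of all pairs, 0.657% and 0.45%). These were Ccl3 in 5 regions, Ccl4 in 3, Ccl6 in 3 and Cxcl10 in 1, with Cx3cl1 lower in choroid plexus. At 18 months 32 were higher and 4 lower (1.54% and 0.921%), with Ccl6 higher in 10 regions. At 21 months 45 were higher and 5 lower (3.53% and 2.65%), at 26 months 37 and 3 (2.38% and 1.32%), and at 28 months 39 and 6 (3.3% and 2.47%). The older ages have fewer mice, and the 6 contrasts share their young libraries. In males alone 80 pairs were higher over the 6 ages in place of 166.

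The slopes differed between regions for all 9 genes. In a fit of all libraries the adjusted p for equal slopes in 15 regions ran from 5.53e-14 for Cxcl16 to 0.0401 for Cxcl12 (edgeR quasi-likelihood F test), and 20.8% of all genes passed it. Cxcl12 lost this call without mouse 57 (adjusted p = 0.0604), without mouse 58 (0.079), in males alone (0.176) and in mice 16 to 56 alone (0.0822). Ccl12 lost it in mice 16 to 56 alone (0.0681), and in the mice with all 15 regions Ccl12 (0.319), Cxcl10 (0.509) and Cxcl12 (0.0577) did. Each region was then set against the mean of the other 14. Of 135 pairs 7 were higher and 11 lower (of all pairs, 0.865% and 1.02%). Libraries of 1 mouse share the animal. With the mouse as a fixed term in limma-voom (the replicate block), all 9 genes still differed between regions, and 14 pairs were higher and 10 lower. Without that term limma-voom gave 16 and 10, and Cxcl12 lost its call of unequal slopes (adjusted p = 0.0682). The shares of all genes given here are those of edgeR, so the limma-voom counts stand without such a share.

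Olfactory bulb stood apart by lower slopes in 7 of 9 ligands, where 3.01% of all genes were lower. The difference from the other regions was -0.13 ± 0.024 log2 per month for Ccl3 (adjusted p = 4.39e-05), -0.13 ± 0.039 for Ccl4, -0.12 ± 0.027 for Cxcl10, -0.10 ± 0.027 for Ccl2, -0.076 ± 0.018 for Ccl12, -0.055 ± 0.010 for Cxcl16 and -0.052 ± 0.011 for Ccl6. With the mouse term 6 of the 7 held, and Ccl2 did not (adjusted p = 0.0601). Ccl2, Ccl3 and Ccl4 did not pass the filter within the bulb, where they had 169, 188 and 68 reads over 58 libraries, so that their differences rest on few reads there. Cxcl12 and Cx3cl1 in the bulb did not differ at the threshold. The bulb was also where the young libraries stood highest for 4 of these genes. Its 6 border macrophage genes summed to 17.5 to 210.4 CPM at 3 months and 21.4 to 33.8 CPM at 28 months, and the part of such cells was not tested.

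Corpus callosum, a white matter tract, the kind of tissue the title of the series names, was higher for 1 ligand, Ccl6 (0.040 ± 0.0097 log2 per month above the other regions, adjusted p = 0.00535), where 0.799% of all genes were higher. With the mouse term Ccl4 was higher too (0.078, adjusted p = 0.006). In mice 16 to 56 alone and in the mice with all 15 regions no ligand passed this test. Medulla was higher for Ccl4 (0.11 ± 0.024, adjusted p = 0.000506) and Cxcl10 (0.13 ± 0.036, adjusted p = 0.00839), where 3.65% of all genes were higher. Pons was higher for Ccl3 (0.088 ± 0.022, adjusted p = 0.00992) and choroid plexus for Cxcl16 (0.037 ± 0.010, adjusted p = 0.0117). Of all genes 0.514% were higher in pons and 1.48% in choroid plexus. Cx3cl1 had a higher slope in cerebellum (0.023 ± 0.0038, adjusted p = 6.19e-07) and a lower one in choroid plexus (-0.012 ± 0.0035, adjusted p = 0.0342). Of all genes 1.34% were higher in cerebellum and 2.92% lower in choroid plexus. Ccl2 was higher in posterior hippocampus and lower in hypothalamus, and Ccl3 was lower in subventricular zone and thalamus. These 4 did not pass with the mouse term (adjusted p from 0.082 to 0.518). Ccl2 did not pass the filter within posterior hippocampus (113 reads over 58 libraries) or hypothalamus (135 reads over 55), so its differences there rest on few reads. Of all genes 0.133% were higher in posterior hippocampus. Lower were 0.242% in hypothalamus, 1.14% in subventricular zone and 1.13% in thalamus. The limma-voom fit with the mouse term also gave calls that edgeR did not, higher for Ccl3 (adjusted p = 0.00379) and Cxcl16 (0.0175) in medulla, Ccl6 (0.00219) and Ccl4 (0.0114) in pons, Ccl4 in caudate putamen (0.00158), and Ccl3 in cerebellum (0.0324) and choroid plexus (0.0411). It gave lower slopes for Ccl3 (0.00448) and Ccl4 (0.0144) in visual cortex and Cxcl16 in entorhinal cortex (0.018). The share of all genes that it called is not given here.

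**Figure D5:**
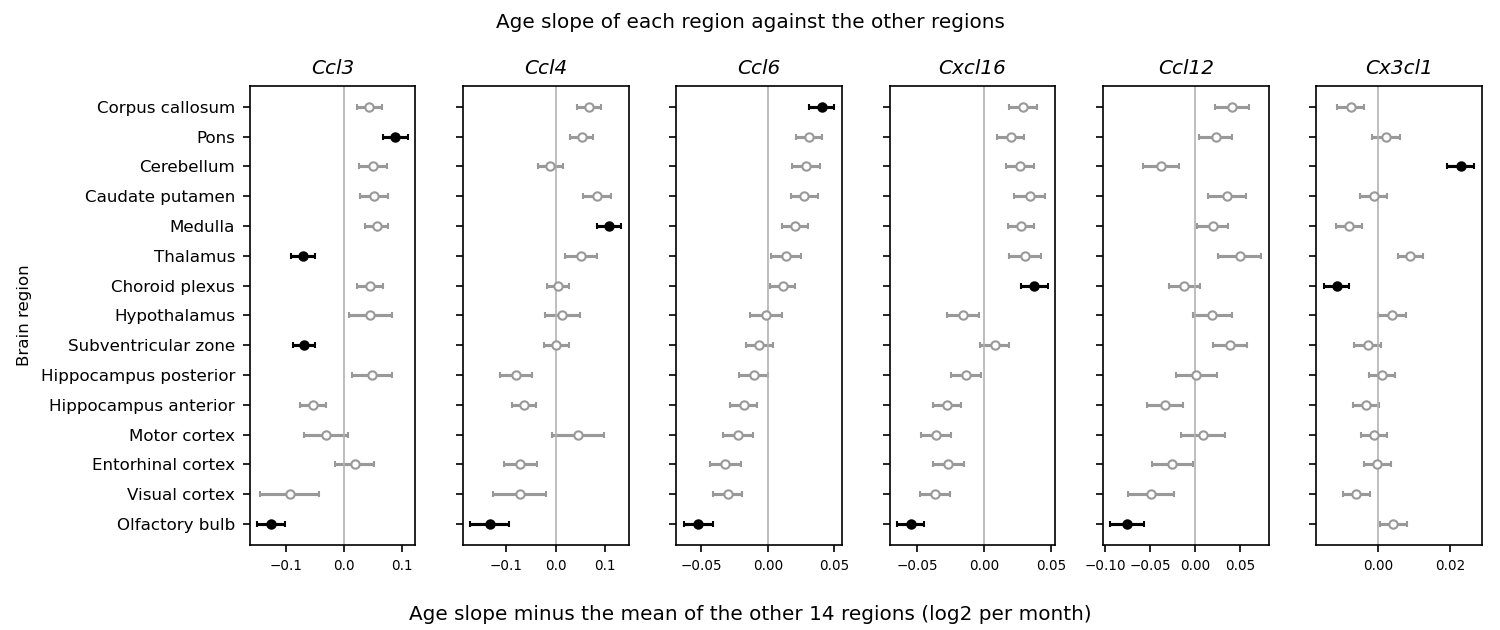
Difference between the age slope of each region and the mean slope of the other 14, in log2 per month, for 6 ligands. Points are estimates and bars are 1 SE, filled where the adjusted p was under 0.05; olfactory bulb lies left of 0 for Ccl3, Ccl4, Ccl6, Cxcl16 and Ccl12, and cerebellum right of 0 for Cx3cl1.

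Between the sexes, compared from 3 to 21 months, 7 of 100 pairs were lower in males and 1 was higher, where 1.47% and 1.24% of all pairs were. Ccl3 in medulla ran from 0 to 5.75 CPM in 24 females (median 1.49) and from 0 to 2.18 CPM in 26 males (median 0.463). The male minus female difference was -1.15 ± 0.21 on the log2 scale (adjusted p = 0.000112). Ccl4 in medulla had a median of 1.12 CPM in females and 0.272 CPM in males (difference -1.06 ± 0.26, adjusted p = 0.00204). Ccl3 was also lower in males in choroid plexus (medians 0.656 and 0.348 CPM) and pons (1.71 and 0.664 CPM), and Cxcl16 in choroid plexus (3.91 and 3.11 CPM, difference -0.50 ± 0.11, adjusted p = 0.013). The ranges of the sexes overlapped for each. In medulla 13.3% of all genes were lower in males and 9.18% higher, so the medulla differed between the sexes in many genes. Of all genes 0.575% were lower and 0.381% higher in males in choroid plexus, and lower were 0.131% in pons and 1.85% in motor cortex.

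Cx3cl1 was lower in males in motor cortex, with 1310.2 to 1840.3 CPM in 25 females (median 1468) and 1203 to 1561 CPM in 26 males (median 1344), a difference of -0.14 ± 0.025 (adjusted p = 0.00021). It was higher in males in medulla (medians 301 and 278 CPM, difference 0.16 ± 0.040, adjusted p = 0.00202), and Cxcl12 was lower there (26.8 and 34.5 CPM, adjusted p = 0.0419). Males and females of 3, 15, 18 and 21 months carry separate runs of mouse numbers, and whatever goes with those runs cannot be told apart from sex there. At 12 months, where the numbers of the sexes alternate, 58 pairs could be tested and none passed. These held only 4 of the 8 called pairs, none of them reversed. The rest of the 8 were not tested at 12 months. Cxcl16 in choroid plexus was then at -0.19 on the log2 scale and Cxcl12 in medulla at -0.44, in the same direction. The call of Ccl3 in choroid plexus was lost without mouse 47 or 48 (adjusted p = 0.057 without mouse 48), that of Cxcl12 in medulla when any 1 of 22 mice was left out (0.0839 without mouse 48) and that of Ccl3 in pons when any 1 of 11 mice was left out (0.0872 without mouse 52).

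No difference of the age slope between the sexes passed the threshold among 100 pairs in edgeR (0 calls, smallest adjusted p = 0.142). Of all pairs 0.0184% were steeper and 0.0543% less steep in males. At an unadjusted p under 0.05 there were 13 pairs of the 100, and all 13 had the lower slope in males. Of the pairs of all genes 12529 of 211769 (5.92%) were under 0.05, both directions together. The slope was lower in males in 66 of the 100 pairs, which share mice. No other tool was run for this term.

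Of 23 chemokine receptors 13 passed the filter in some region, and 19 of their 139 pairs with a region rose and 8 fell, with a median slope of 0.0025 log2 per month, against 5.87% rising and 4.71% falling of all pairs. Cx3cr1, the receptor of Cx3cl1 on microglia, rose in 11 of 15 regions, with 54.7 CPM on average at 3 months and 77.7 CPM at 28 months. Its slope in the mean over regions was 0.021 ± 0.0015 (adjusted p = 7.33e-18), and it rose in both cerebellum and corpus callosum. Cxcr6, the receptor of Cxcl16, rose in 5 of 11 regions (cerebellum, choroid plexus, corpus callosum, medulla and pons), which are among the 8 where Cxcl16 rose. Ccr2, the receptor of Ccl2 and Ccl12, rose in choroid plexus alone of 7 regions tested. Ccr1 passed the test in none of 4 regions. Ackr3, a receptor of Cxcl12 that scavenges it, rose in cerebellum alone. Cxcr3 and Cxcr4 passed the filter nowhere, with 619 and 500 reads over all 847 libraries. Ackr1, a scavenger on the endothelium of small veins, fell in 7 of 15 regions, and Ackr2, another scavenger, rose in visual cortex alone of 7.

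Of 28 other chemokine ligands 17 passed the filter in some region, and 34 of their 153 pairs rose and 5 fell (median slope 0.0099), against the same 5.87% and 4.71%. Ccl5, made by T cells among others, rose in 9 of 12 regions, with 0.259 CPM on average at 3 months and 1.51 CPM at 28 months. Ccl9, a myeloid ligand like Ccl6, rose in 7 of 15. Cxcl13, which attracts B cells, rose in 5 of 7, from 0.189 to 1.81 CPM on average. Cxcl5 rose in 5 of 12, and Ccl27a fell in 5 of 15. Of the proteases, Adam10 rose in 2 and Adam17 fell in 2 of 15 regions. These lists were chosen with earlier results of the data known and are given as counts.

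Last, the genes most like each ligand were sought by the correlation of mean log2 CPM over 105 groups of region and age among 14180 genes. The groups share mice, regions and depth, so the r is a description. Ccl3 was most like Itgb2 (r = 0.903), Cst7 (0.901) and Mpeg1 (0.888), and Ccl4 like Cst7 (0.92), Itgb2 (0.904) and Cd84 (0.897). Ccl6 was most like Ptpn6, Itgb2 and Tyrobp (each 0.9 to 0.901), and Cxcl16 like Lyz2 (0.9), Lilrb4a (0.865) and Cybb (0.852). These are genes of microglia, macrophages and other leukocytes. Ccl12 was most like Usp18 (0.852), Psmb8 (0.852) and Ifi27l2a (0.844), and Cxcl10 like Parp12 (0.788), Parp9 (0.782) and Apobec3 (0.778), of which most are induced by interferons. Ccl2 was most like AW112010 (0.733), Capg (0.727) and H2-K1 (0.725). Cxcl12 was most like Eya1 (0.827), Atf6b (0.819) and Htra4 (0.812). Cx3cl1 was most like Tmem191c (0.951), Stk32c (0.942) and Ncan (0.934).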

How the data were processed

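Tissue of 15 brain regions was sequenced, and per the labels' protocols RNA was extracted with RNeasy kits and libraries were made with Smart-Seq2 and Nextera XT, without strand. Per the submitters' processing notes, Trim Galore 0.3.7, STAR 2.5.3a, DESeq2 and build GRCm38 were used; the counting program, annotation and filters are not given in the sources used here. The deposited values are raw read counts per gene, the unit all tests started from. Library totals ran from 481444 to 26756735 reads, which limits the precision for rare genes.

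Region, sex, age and mouse came from the labels. Within each region, genes passing filterByExpr were fitted with edgeR 4.0.16 (TMM factors, quasi-likelihood test) on age and sex, on age as a factor, on sex at 3 to 21 months, and on age by sex. A joint fit gave each region its own intercept, age and sex terms. The mean over regions of each mouse was fitted with limma 3.58.1 on log2 CPM with a prior count of 2. P-values were adjusted over all genes tested (Benjamini-Hochberg, threshold 0.05). The slope test was tested on simulated data.

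Libraries of 1 mouse come from the same animal, so mouse numbers pair libraries across regions. The residuals of 2 regions of 1 mouse correlated with a mean r of 0.0304 over 5687 pairs, and those of 2 mice with -0.00714 over 22735 pairs. Alternatives were RLE factors, no filter, DESeq2 1.42.0, males alone, mice 16 to 56, mice with all regions, depth covariates, limma, a mouse block, 12-month mice for sex, and each mouse left out; leaving out libraries under 1000000 reads was chosen after seeing the data. The 9 genes and all lists were chosen with earlier results of these data known. All 9 genes are named whatever their values; of the lists, receptors that bind them (1 is not reported here) and up to 5 genes called in the most regions; and for each ligand the 3 most correlated genes. The regions shown for each gene, and the genes overlapping them, were chosen after their values were seen.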

Additional observations from a re-analysis of the deposited data

Results flagged for a closer look

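The age slope differed between the 15 regions for each of the 9 ligands (adjusted p from edgeR's quasi-likelihood F test over 16527 genes, of which 20.8% passed). The adjusted p was 2.38e-06 for Ccl2, 8.9e-13 for Ccl3, 2.51e-07 for Ccl4, 4.92e-10 for Ccl6, 0.000779 for Ccl12, 0.0012 for Cxcl10, 0.0401 for Cxcl12, 5.53e-14 for Cxcl16 and 1.22e-06 for Cx3cl1.

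Of 30 groups of gene, region and age looked at, 5 held 1 library far from the others of its group. The groups share mice, so no rate by chance is set beside this count. All 5 were the highest of 10 libraries. At 3 months these were Cxcl16 in choroid plexus (mouse 49, 3.53 CPM, next 2.72), Ccl12 in corpus callosum (mouse 17, 2.01 CPM, next 0.847), and in olfactory bulb of mouse 33 both Ccl12 (9.11 CPM, next 4.78) and Cxcl10 (7.85 CPM, next 2.55). At 21 months it was Cxcl10 in subventricular zone (mouse 44, 15.6 CPM, next 7.07).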

How the results depend on the processing

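The count of pairs rising with age ran from 43 in males alone to 65 without a filter (59 as reported), and that of falling pairs from 5 to 8 (7 as reported). The shares of all genes given above are those of the fits as reported, and none is set beside these alternative counts. Leaving out 1 mouse at a time gave 53 to 61 rising and 6 to 8 falling pairs. Of the 66 called pairs, 40 passed in the same direction under every alternative run on them, and 11 of 66 were lost without some mouse. No called pair reversed. For later ages against 3 months, 80 pairs were higher in males alone (166 as reported), and leaving out a mouse of 3 or 28 months gave 154 to 175 higher and 15 to 18 lower. For sex, mice of 12 months alone gave 0 pairs higher and 0 lower in males, and leaving out a mouse gave 5 to 9 lower and 1 higher. Only 4 of the 8 called pairs could be tested in the mice of 12 months. The slope by sex had 0 calls under each alternative run. Unequal slopes between regions held for 6 to 9 of 9 ligands. For a region against the other regions, 7 pairs were higher as reported, 4 in males alone, 16 with limma-voom without a block and 14 with the replicate block; 11 were lower as reported, 4 in males alone, 6 in mice with all regions and 10 with the block. For corpus callosum the count of 1 became 0 in mice 16 to 56, 0 in mice with all regions, 4 with limma-voom without a block and 2 with the block. The cause was not tested. Mean levels in pons in 3-month mice alone were 0.17 CPM for Ccl3, 0.135 for Ccl4 and 2.51 for Ccl6, in place of 1.72, 1.57 and 6.05. No paired analysis was possible for age or sex because no mouse is shared between ages or sexes. Leaving out single mice was not run for the contrasts of every region, and for the other joint tests only for mice 57 to 59. Depth limits Ccl2, Ccl3, Ccl4, Ccl12 and Cxcl10, which failed the filter on low counts in some or most regions.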
